A study of Homo sapiens with 6 samples.

Results

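The genes described here are 37 of the 29710 genes with reads in the deposited count table. They are ATF4, 20 genes known as its targets or partners in the response to amino acid shortage, and 16 aminoacyl-tRNA synthetases. They were taken from a list of symbols, and all 37 were found under their current symbols. All 37 also passed the filter on low counts, among 16515 genes tested. The cells were MDA-MB-231, a triple-negative breast cancer line. The 3 libraries of the first group came from cells overexpressing FLAG-tagged SRPK2, a kinase of serine- and arginine-rich splicing factors, and the 3 libraries of the second from cells with an empty vector. Both groups are cultures of 1 cell line, and the labels name neither the promoter that drives SRPK2 nor whether clones or pools were used. Time after transfer of the construct is not stated.

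ATF4 is the transcription factor at the centre of the integrated stress response. Kinases that sense missing amino acids, unfolded proteins, double-stranded RNA or lack of haem phosphorylate the initiation factor eIF2, which slows general translation and, through upstream reading frames, raises translation of the ATF4 mRNA. Paired with a C/EBP protein or another relative, ATF4 binds C/EBP-ATF response elements in genes that make, import and charge amino acids. In breast cancer lines this programme supplies serine, glycine, asparagine and proline to growing cells. Because ATF4 is controlled largely in translation, its mRNA level is no measure of the protein, which was not assayed.

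The letters of that element are shown because it is the sequence through which ATF4 is known to act on such genes. The motif TGATGNAA was searched on both strands in windows of 300 bases, from 250 bases before to 50 after each annotated start (RefSeq, GRCh38.p14), and no other motif was searched. Of the 37 genes, 30 have an entry in the sequence table, and the motif was present for 11 of them, 4 of 17 ATF4-related genes and 7 of 13 synthetases. By window the share was 24.4% (11 of 45), against 3.62% of all 35116 windows in the table. The matches below are written 5′ to 3′ on the strand of the gene, with the motif in capitals and at most 30 bases each. They were chosen to show an enzyme, an effector, 2 transporters and 2 synthetases.
ASNS: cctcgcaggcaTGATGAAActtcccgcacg
CHAC1: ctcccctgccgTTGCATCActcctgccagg
SLC3A2: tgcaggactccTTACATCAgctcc
SLC1A5: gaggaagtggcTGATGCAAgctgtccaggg
AARS1: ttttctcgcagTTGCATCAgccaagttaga
TARS1: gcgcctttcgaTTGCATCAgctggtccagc
Coordinates are those of the printed stretches, and distances are counted from the end of the motif. The ASNS stretch lies at chr7:97872458-97872487 on the minus strand, and its motif ends 61 bases before a start. The stretch of CHAC1 lies at chr15:40953251-40953280 on the plus strand, with its motif 202 bases before the start. The stretch of SLC1A5 is at chr19:46784893-46784922 (minus), its motif 90 bases before a start. That of AARS1 is at chr16:70289675-70289704 (minus), its motif 180 bases before. The motifs of SLC3A2, within chr11:62881725-62881748 (plus), and of TARS1, within chr5:33440956-33440985 (plus), lie after an annotated start. A match of letters does not show that the site is bound in these cells.

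SRPK2 itself was present at 213, 248 and 294 CPM (read counts scaled to library size with TMM factors) in the SRPK2 libraries and at 37.8, 36.7 and 41.1 CPM in the empty-vector libraries. Its edgeR log2 fold change was 2.71 (SE 0.10, adjusted p = 2.94e-08). The libraries held 31140537 to 36908878 reads with SRPK2 and 33590410 to 36225361 with the empty vector. The 37 genes took 0.50% to 0.512% and 0.505% to 0.517% of them. Of the line's own markers VIM stood at 609 and 626 mean FPKM (reads scaled by gene length and library size) with SRPK2 and the empty vector. The hormone receptor gene PGR stood at 0.0067 mean FPKM in both groups. ERBB2 had 4.58 and 4.09 mean FPKM, so it was low but present. EPCAM, also listed as low, had 5.46 and 5.44 mean FPKM, and CDH1 0.397 and 0.383. ESR1 had at most 2 reads in a library. Of the other genes listed as high, CD44 had 97.1 and 95.5 mean FPKM, CAV1 156 and 145, and AXL 164 and 157. PAX8, listed as a marker of embryonic kidney or neuronal lines, had 2.18 and 2.00 mean FPKM. The summed level of 5 fibroblast markers, none of them at 0 in all libraries, was 2.11 to 2.18 FPKM with SRPK2 and 1.50 to 1.58 FPKM with the empty vector. Of these 5 genes 3 were higher at an unadjusted p under 0.05 in edgeR, against 9.06% of all tested genes. In the same fit 0 of the 5 passed the threshold given below. Of 5 leukocyte markers 3 had FPKM values, with a sum of 2.95 to 3.44 FPKM with SRPK2 and 3.14 to 3.61 FPKM with the empty vector. Nearly all of it was CD14 (3.11 and 3.23 mean FPKM), while PTPRC, which all leukocytes carry, stood at 0.020 and 0.017 mean FPKM. The part of the fibroblast markers in the results below was not tested. In bulk RNA more cells of a type and more RNA per cell cannot be told apart.

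In the edgeR test on group alone none of the 37 genes passed the threshold, an adjusted p under 0.05 over all tested genes. The 6 genes with an unadjusted p under 0.05 were 5 of the 8 biosynthetic enzymes, with log2 fold changes of -0.27 to -0.16, and the transporter chain SLC3A2, at -0.12. Log2 fold changes of like size but a larger p were those of CHAC1 (0.20), PHGDH (0.20), TRIB3 (-0.16) and DDIT3 (-0.16). The edgeR quasi-likelihood test called 0.454% of all tested genes, 0.381% as higher and 0.0727% as lower. DESeq2 and limma-voom also called 0 of the 37. A fit with the replicate number as a block called 17 of the 37 (45.9%), 15 lower and 2 higher, against 23.6% of all genes. The labels state no batch shared by replicates of the same number. Where no other setting is named, edgeR stands for the fit with TMM factors and without this replicate block. At an unadjusted p under 0.05, 6 of the 37 were lower with SRPK2 and 0 higher, so 16.2% were lower. Over all tested genes 17.2% had such a p, 8.10% lower and 9.06% higher. With libraries scaled by size alone the count was 4 lower and 3 higher, and with limma on log2(FPKM + 1) 5 lower and 3 higher. The log2 fold change was below 0 for 27 of the 37 (73.0%), as it was for 48.8% of all tested genes. It was below 0 for 21 of 37 with size alone and 21 of 36 with limma on log2(FPKM + 1), scalings under which the median of all genes was 0.04 and 0.03. The groups of libraries did not overlap for 7 genes that were lower and 2 that were higher, together 24.3% of the 37. Of all tested genes 20.1% showed no overlap, 8.69% lower and 11.5% higher. The median log2 fold change of ATF4 and the 20 related genes was -0.09, that of the synthetases -0.04 and that of all tested genes 0.00. Without SRPK2 replicate 2, the highest SRPK2 library for ASNS and PSAT1, 2 of the 37 passed (ASNS and PSAT1), when 8.37% of all genes did.

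**Figure D1:**
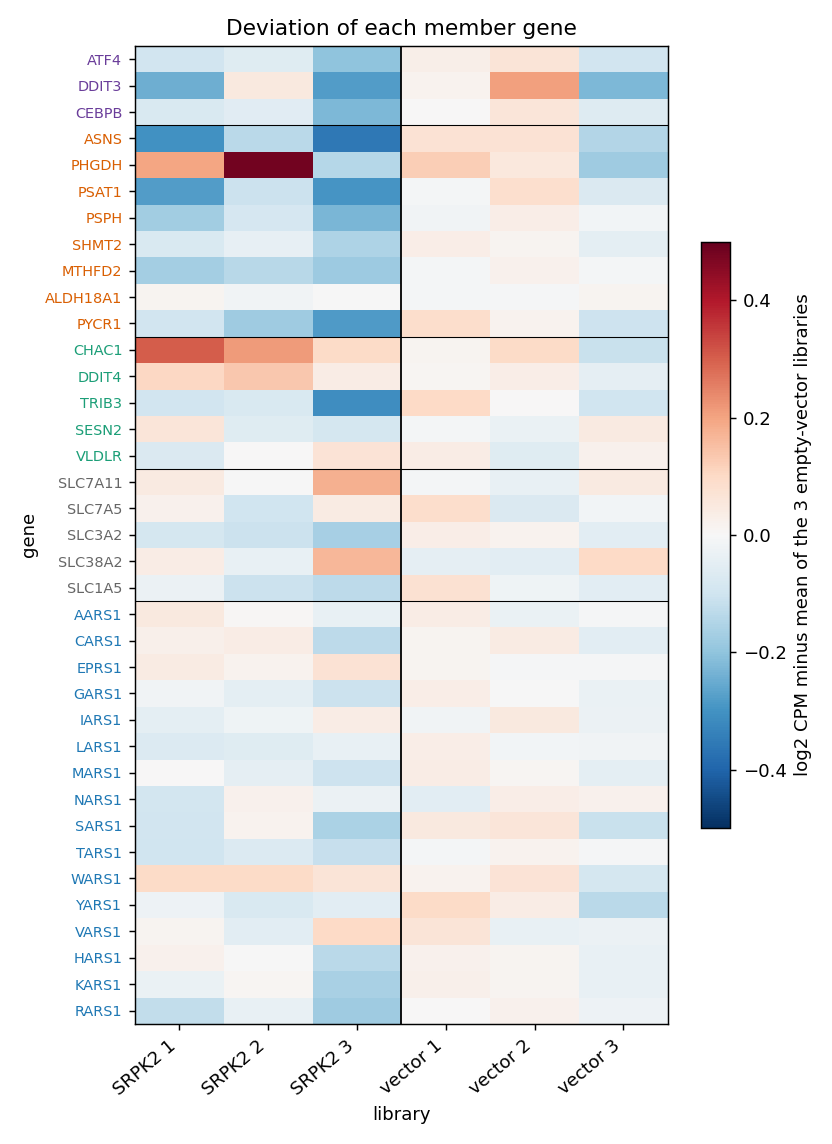
Deviation of each of the 37 genes (rows, grouped by role) in each library (columns), as log2 CPM minus the mean of the 3 empty-vector libraries. Most biosynthetic enzymes are below 0 in all 3 SRPK2 libraries, with ASNS at -0.30, -0.14 and -0.36, while most synthetases are near 0 and PHGDH, at 1.12 to 1.80 CPM, scatters widely.

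The 3 transcription factors had a median log2 fold change of -0.12, and 0 of them passed the threshold or had an unadjusted p under 0.05 in edgeR. ATF4 (chr22:39519695-39522685, plus strand, GENCODE 29) stood at 230.5, 236 and 214 CPM with SRPK2 and at 251, 257 and 230.3 CPM with the empty vector. The groups overlapped because control replicate 3 lay below SRPK2 replicates 1 and 2. The log2 fold change was -0.12 (SE 0.06, 95% interval -0.25 to 0.01, edgeR adjusted p = 0.318). CEBPB, which encodes a C/EBP protein that pairs with ATF4, had 108, 110 and 97.8 CPM with SRPK2 and 114.5, 119 and 109 CPM with the empty vector. Its log2 fold change was -0.12 (SE 0.06, edgeR adjusted p = 0.312), and SRPK2 replicate 2 lay just above control replicate 3. DDIT3, which encodes the stress factor CHOP, had 31.2, 38.2 and 30.4 CPM with SRPK2 and 37.4, 42.6 and 31.6 CPM with the empty vector, so that the groups overlapped widely. Its log2 fold change was -0.16 (SE 0.10, edgeR adjusted p = 0.438). It ran from -0.27 without SRPK2 replicate 2 to -0.05 without control replicate 2, and that of CEBPB from -0.15 without control replicate 3 to -0.07 without SRPK2 replicate 3. DDIT3 overlaps MARS1, itself one of the synthetases, on the opposite strand, and since the counter's strand setting is not given, reads shared by the pair cannot be told apart.

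Among the biosynthetic enzymes, 5 of 8 were lower at an unadjusted p under 0.05 in edgeR, against 8.10% of all tested genes. After adjustment 0 of 8 passed in edgeR, DESeq2 or limma-voom. ASNS makes asparagine from aspartate and glutamine (chr7:97852118-97872542, minus strand). It had 27.0, 30.3 and 26.0 CPM with SRPK2 and 35.0, 35.0 and 30.1 CPM with the empty vector. SRPK2 replicate 2 and control replicate 3 met at the same level, and the other libraries lay apart. The log2 fold change was -0.27 (SE 0.08, 95% interval -0.43 to -0.10, edgeR adjusted p = 0.156), a difference of -16.8%. PSAT1, the aminotransferase of serine synthesis (chr9:78297143-78330093, plus strand), had 67.5, 75.9 and 66.7 CPM with SRPK2 and 81.3, 86.8 and 77.9 CPM with the empty vector. All 3 SRPK2 libraries lay below all 3 controls. The log2 fold change was -0.23 (SE 0.06, 95% interval -0.36 to -0.09, edgeR adjusted p = 0.154), and the exact two-sided permutation p was 0.1, which no comparison of 3 with 3 can go below. ASNS and PSAT1 passed without SRPK2 replicate 2, with log2 fold changes of -0.33 and -0.29 (edgeR adjusted p = 0.0202 and 0.0169), and with no filter on low counts (edgeR adjusted p = 0.00770 and 0.0139). These settings called 8.37% and 3.36% of all genes.

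PSPH, the phosphatase of the last step of serine synthesis (chr7:56011051-56051604, minus strand), had 26.2, 27.9 and 25.2 CPM with SRPK2 and 29.2, 30.2 and 29.3 CPM with the empty vector, again without overlap. Its log2 fold change was -0.16 (SE 0.06, edgeR adjusted p = 0.217). The copy PSPHP1 held 111 to 154 reads per library, against 820 to 1071 for PSPH, and reads could be split between them. MTHFD2, a mitochondrial enzyme of one-carbon metabolism (chr2:74198562-74217565, plus strand), had 50.7, 51.8 and 50.3 CPM with SRPK2 and 56.6, 57.8 and 56.7 CPM with the empty vector. The replicates lay close together in each group, and the groups did not overlap. The log2 fold change was -0.16 (SE 0.05, 95% interval -0.27 to -0.06, edgeR adjusted p = 0.165). PYCR1, which makes proline (chr17:81932384-81942412, minus strand), had 50.3, 47.5 and 44.1 CPM with SRPK2 and 57.1, 54.4 and 50.1 CPM with the empty vector. SRPK2 replicate 1 stood just above control replicate 3, and the log2 fold change was -0.19 (SE 0.07, edgeR adjusted p = 0.203).

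The other enzymes differed less or could not be measured well. SHMT2, which splits serine to glycine in mitochondria, had 144, 147 and 136 CPM with SRPK2 and 155, 153 and 147 CPM with the empty vector (log2 fold change -0.09, SE 0.05, edgeR adjusted p = 0.377). ALDH18A1, the enzyme before PYCR1 in proline synthesis, had means of 83.0 ± 0.94 CPM with SRPK2 and 83.2 ± 0.76 CPM with the empty vector (SD, n = 3 each). The groups overlapped fully, unlike those of PYCR1. PHGDH, the first enzyme of serine synthesis, was nearly silent, with 41 to 63 reads per library. It stood at 0.15, 0.18 and 0.12 FPKM with SRPK2 and at 0.14, 0.13 and 0.11 FPKM with the empty vector. MDA-MB-231 is known as a line with little PHGDH, and its partners PSAT1 and PSPH were well expressed here. At that depth the 95% interval of the log2 fold change of PHGDH ran from -0.25 to 0.64, wider than for any other of the 37, and no difference was detectable.

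**Figure D2:**
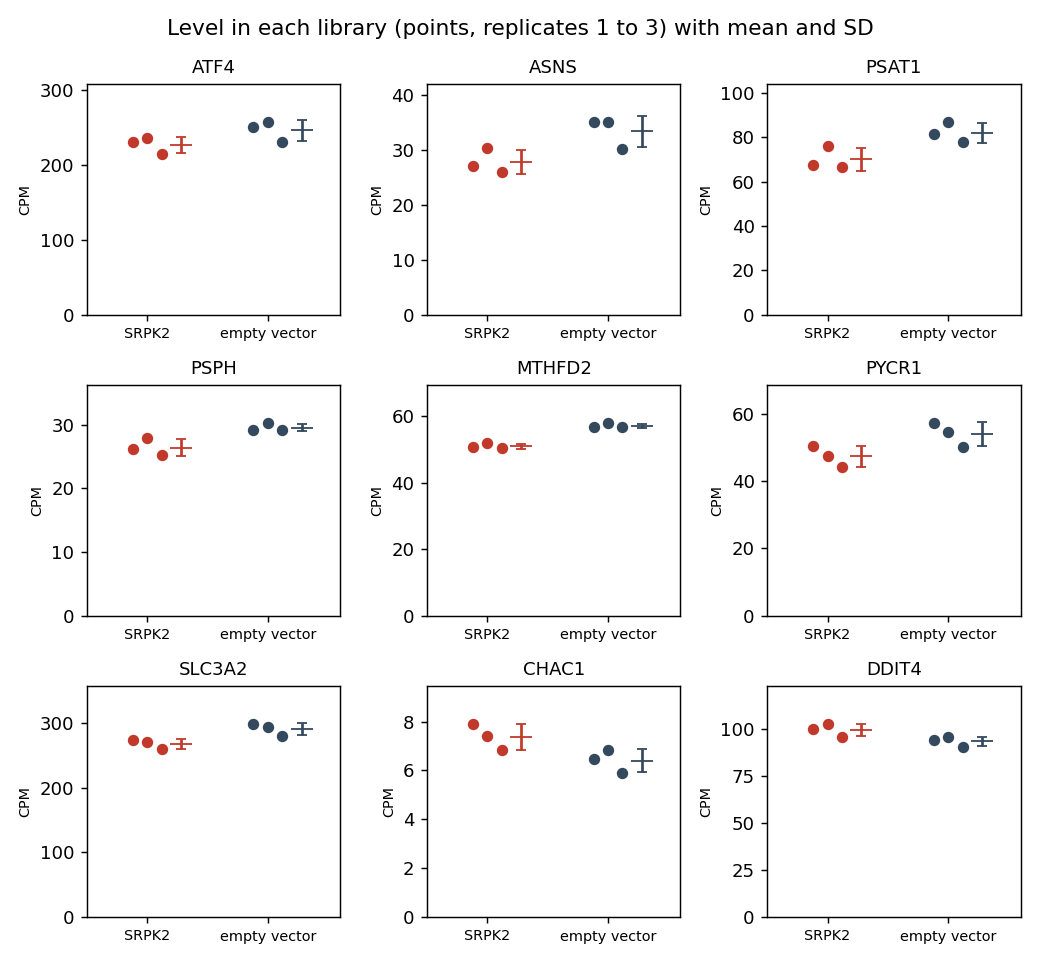
CPM in each library for ATF4, 5 biosynthetic enzymes, the transporter chain SLC3A2 and the effectors CHAC1 and DDIT4, with points for replicates 1 to 3 and the mean and SD beside them on axes that start at 0. PSAT1, PSPH, MTHFD2 and SLC3A2 are lower in all 3 SRPK2 libraries than in any empty-vector library, and DDIT4 is higher.

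Effectors of the stress response had values on both sides of 0. In edgeR 0 of 5 passed the threshold or had an unadjusted p under 0.05. With size alone and with limma on log2(FPKM + 1), CHAC1 and DDIT4 were higher at such a p, and 0 of 5 passed. CHAC1, which degrades glutathione and carries the element shown above, had 7.89, 7.41 and 6.84 CPM with SRPK2 and 6.46, 6.84 and 5.90 CPM with the empty vector. SRPK2 replicate 3 and control replicate 2 met, and the log2 fold change was 0.20 (SE 0.10, 95% interval -0.00 to 0.41, edgeR adjusted p = 0.297). DDIT4, which restrains mTORC1 under stress, had 100.3, 102 and 96.0 CPM with SRPK2 and 94.1, 95.5 and 90.6 CPM with the empty vector. Each SRPK2 library lay above each control, by a small margin (log2 fold change 0.09, SE 0.05, edgeR adjusted p = 0.357). TRIB3, a pseudokinase that dampens ATF4, had 24.9, 25.3 and 21.5 CPM with SRPK2 and 28.5, 26.7 and 24.8 CPM with the empty vector (log2 fold change -0.16, SE 0.08, edgeR adjusted p = 0.295). SESN2, a leucine sensor that also restrains mTORC1, and VLDLR, a lipoprotein receptor that ATF4 can induce, had log2 fold changes of -0.03 and 0.00.

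Of the amino acid transporters 0 of 5 passed the threshold and 1 had an unadjusted p under 0.05, against 17.2% of all tested genes. That gene was SLC3A2, the heavy chain shared by the leucine transporter SLC7A5 and the cystine transporter SLC7A11 (chr11:62856102-62888875, plus strand). It had 273, 270.0 and 259 CPM with SRPK2 and 298, 294 and 280.3 CPM with the empty vector, without overlap. The log2 fold change was -0.12 (SE 0.05, 95% interval -0.23 to -0.01, edgeR adjusted p = 0.258). Of its light chains, SLC7A5 had a log2 fold change of -0.01 (SE 0.06) and SLC7A11 one of 0.08 (SE 0.06), with edgeR adjusted p of 0.925 and 0.510. Differences between the chains were not tested. SLC1A5, a carrier of neutral amino acids such as glutamine, had 201, 190.0 and 187 CPM with SRPK2 and 216, 202 and 197 CPM with the empty vector (log2 fold change -0.09, SE 0.05, edgeR adjusted p = 0.402). SLC38A2, a sodium-coupled carrier of small neutral amino acids, had 344, 327 and 377 CPM with SRPK2 and 325, 323 and 359 CPM with the empty vector. Replicate 3 was the highest of each group, and the log2 fold change was 0.06 (SE 0.06, edgeR adjusted p = 0.677).

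The synthetases attach amino acids to tRNAs, and several are encoded by ATF4 targets. Of these 16 genes 0 passed the threshold in edgeR, DESeq2 or limma-voom, and 0 had an unadjusted p under 0.05 in edgeR. Without the replicate block, other settings gave such a p to WARS1 (higher) or to RARS1, TARS1, GARS1 or LARS1 (lower), and none passed. Their log2 fold changes lay between -0.11 and 0.08, with SEs of 0.05 to 0.06 and 95% intervals that together spanned -0.23 to 0.20. RARS1, for arginine, had 174, 185 and 167 CPM with SRPK2 and 189.9, 192 and 186 CPM with the empty vector (log2 fold change -0.11, SE 0.05, edgeR adjusted p = 0.295). TARS1, for threonine, had 419, 429 and 415 CPM with SRPK2 and 447, 455 and 448 CPM with the empty vector (log2 fold change -0.10, SE 0.05, edgeR adjusted p = 0.339). SARS1, for serine, had 196, 212 and 188 CPM with SRPK2 and 217, 219 and 194 CPM with the empty vector, with wide overlap (log2 fold change -0.08, SE 0.06, edgeR adjusted p = 0.524). In RARS1, TARS1 and LARS1 all SRPK2 libraries were below all controls, and in EPRS1 they were above. WARS1, for tryptophan, is also known as an interferon-induced gene, and its library values are given after they were seen. It had the highest log2 fold change of the 16, at 0.08 (SE 0.05, edgeR adjusted p = 0.412), with 152, 152 and 149 CPM with SRPK2 and 144, 149.6 and 134 CPM with the empty vector. AARS1, CARS1, EPRS1, GARS1, IARS1, LARS1, MARS1, NARS1, SARS1, YARS1, VARS1, HARS1 and KARS1 had values between -0.08 and 0.04. HARS1 (with HARS2 and WDR55), KARS1 (with TERF2IP), YARS1 (with S100PBP) and GARS1 (with GARS-DT) overlap genes with reads on the opposite strand, so their counts carry the same doubt as those of DDIT3 and MARS1. So do those of MTHFD2 (with AC006030.1) and WARS1 (with WDR25).

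Gene length moved with these values. Over all tested genes with a length, the median log2 fold change was -0.10 in the 3406 shortest and 0.05 in the 3406 longest. When libraries were corrected for that trend the median of the synthetases was -0.08, and with libraries scaled by size alone it was -0.01, while all 16 stayed short of the threshold in both. The lengths implied by the authors' FPKM reach 7.28 times the principal transcript for GARS1 and 4.78 times for LARS1, so the correction rests on lengths that include more than that transcript. The gene length correction gave ASNS, PSAT1, PSPH, MTHFD2, PYCR1 and SLC3A2 log2 fold changes of the same sign, with 0 of them past the threshold. It gave smaller values for ATF4 (-0.07), CEBPB (-0.05) and DDIT3 (-0.09) and larger ones for GARS1 and LARS1 (both -0.13), also short of it. CHAC1 and DDIT4 moved further above 0, to 0.27 and 0.16. Their unadjusted p in edgeR with this correction was 0.00937 and 0.00221 (adjusted p = 0.159 and 0.105).

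**Figure D3:**
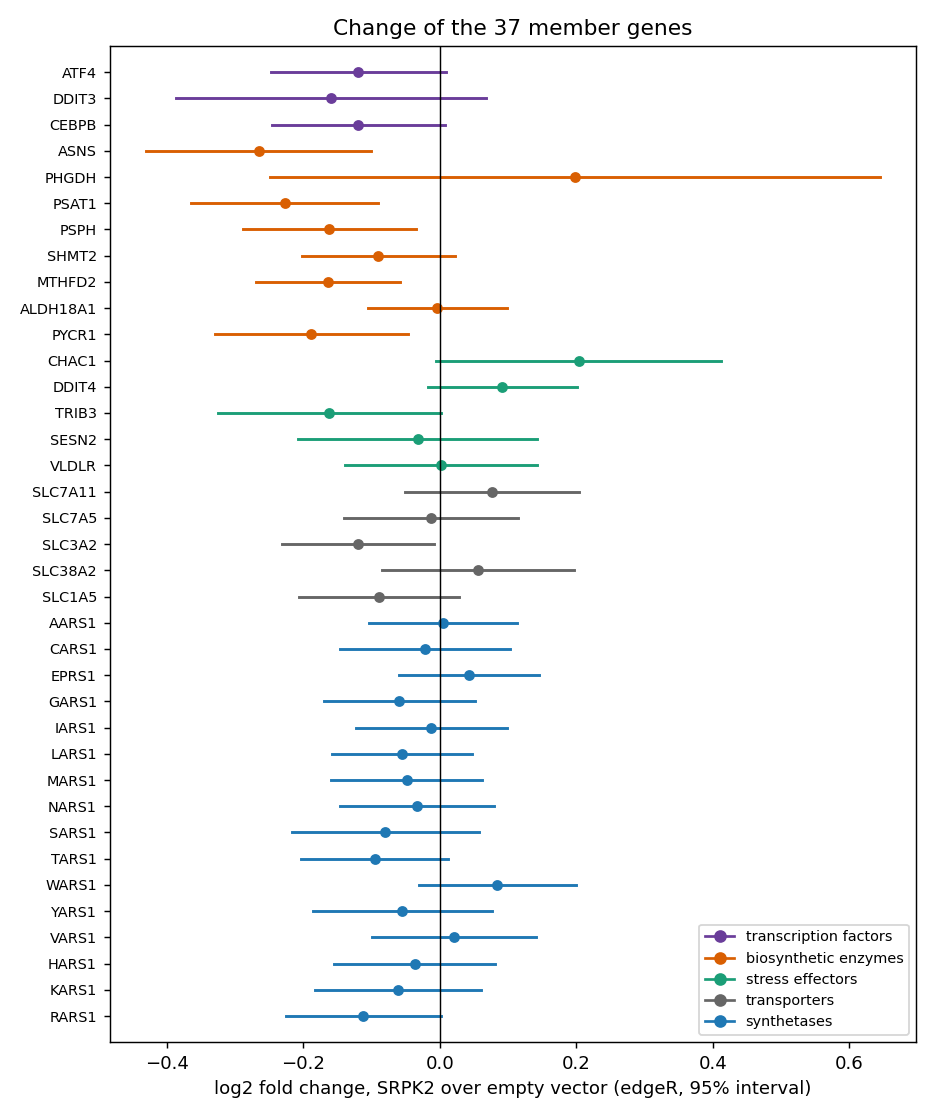
Log2 fold change of each of the 37 genes, SRPK2 over empty vector, with its 95% interval from edgeR, coloured by role. The intervals of ASNS, PSAT1, PSPH, MTHFD2, PYCR1 and SLC3A2 lie below 0 before adjustment for the number of genes tested, and those of all 16 synthetases include 0.

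Levels between genes were compared per length, as deposited FPKM. These levels rest on the authors' gene lengths, which for 27 of the 37 genes could be set beside a principal transcript and were 1.04 to 7.28 times as long. TARS1 had the highest FPKM of the 37, with a mean of 90.9 ± 1.06 FPKM with SRPK2 and 94.7 ± 1.22 FPKM with the empty vector (SD, n = 3 each). ATF4 came next in FPKM, at 79.8 ± 2.38 and 84.5 ± 3.45 FPKM (SD, n = 3 each), and lay below TARS1 in all 6 libraries. SLC1A5, CEBPB and SLC38A2 followed with SRPK2, at 53.2 ± 1.62, 52.6 ± 2.26 and 49.4 ± 4.56 FPKM (SD, n = 3 each), and their libraries overlapped, so their order is not fixed. With the empty vector SLC1A5, CEBPB and SLC38A2 had 55.1 ± 2.40, 55.7 ± 1.43 and 46.3 ± 3.61 FPKM (SD, n = 3 each), and all libraries of SLC38A2 lay below those of the other two. The synthetases ranged from 7.50 to 90.9 mean FPKM with SRPK2 and from 7.44 to 94.7 with the empty vector. Lower FPKM were those of TRIB3, ASNS, SLC7A11, MTHFD2, CHAC1, SESN2, VLDLR and PHGDH, the last at 0.15 and 0.13 mean FPKM. The ratio of lengths was 1.09 for TARS1, 1.43 for ATF4, 2.29 for SARS1, 2.29 for ASNS, 2.83 for MTHFD2 and 7.28 for GARS1. Per principal transcript these genes would be raised by unequal factors, so the order, that of TARS1 and ATF4 included, holds for the authors' lengths alone.

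**Figure D4:**
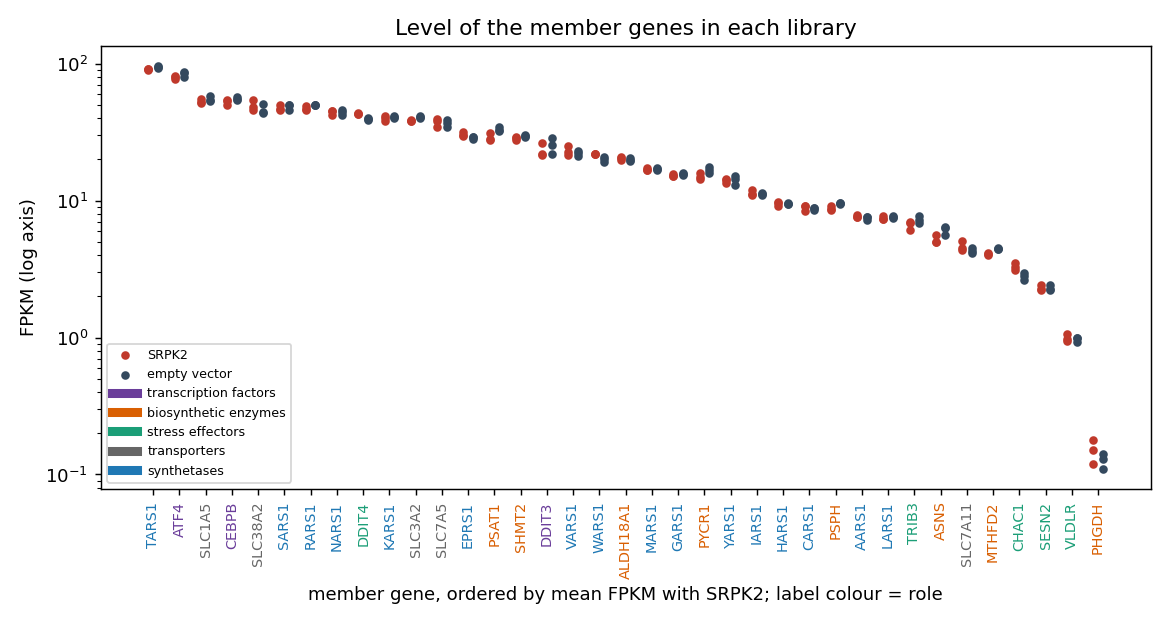
FPKM of each of the 37 genes in each library on a log axis, ordered by the mean with SRPK2, with label colours for the roles. With SRPK2 the means run from TARS1 at 90.9 FPKM down to PHGDH at 0.15 FPKM.

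Genes upstream of and beside ATF4 were read from lists made for this purpose, and 0 of their members passed the threshold in edgeR, DESeq2 or limma-voom. Over all tested genes 8.10% were lower and 9.06% higher at an unadjusted p under 0.05 in edgeR. Of 10 genes for eIF2, its kinases, phosphatases and regulators, 2 were higher and 0 lower at an unadjusted p under 0.05, with a median log2 fold change of 0.01. The most abundant were PPP1R15A (GADD34, which restores translation) at -0.02 and EIF2S1, the phosphorylated subunit, at -0.13. Outside the rule for named genes and chosen after its values were seen, EIF2AK2, the double-stranded RNA sensor PKR, had 89.4, 80.4 and 88.1 CPM with SRPK2 and 79.6, 75.9 and 76.6 CPM with the empty vector (log2 fold change 0.15, SE 0.06, edgeR adjusted p = 0.218). It passed without SRPK2 replicate 2 (0.20, edgeR adjusted p = 0.0406), when 8.37% of all genes did. All 5 subunit genes of eIF2B, the exchange factor that phosphorylated eIF2 blocks, were below 0, against 48.8% of all tested genes. Their median was -0.10, and 1 had an unadjusted p under 0.05, EIF2B3 at -0.14 (edgeR adjusted p = 0.273). The factors that pair with or resemble ATF4 had a median of -0.00 over 8 genes, with 0 at an unadjusted p under 0.05. NFE2L2 and ATF5, the most abundant of them, stood at 0.01 and -0.03. The fit with the replicate block called 2 of the 10 genes for eIF2 and its regulators higher and 1 lower. It called 3 of the 5 eIF2B genes lower and 0 of the 8 factors, against 23.6% of all genes.

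Of 15 tested further targets of ATF4 or CHOP 1 had an unadjusted p under 0.05, and the median log2 fold change was -0.02. That gene was EIF4EBP1, which encodes a translation repressor. It had 57.6, 64.6 and 52.9 CPM with SRPK2 and 66.6, 72.1 and 60.8 CPM with the empty vector (log2 fold change -0.19, SE 0.08, edgeR adjusted p = 0.249). EIF4EBP1 passed without SRPK2 replicate 2 (-0.27, edgeR adjusted p = 0.0356), when 8.37% of all genes did. ERO1A, an oxidase of the endoplasmic reticulum, stood at 0.06. Of 6 tested partners of the serine and one-carbon enzymes, the median was -0.01 and 1 was lower at an unadjusted p under 0.05. It was TYMS, which makes thymidylate, at -0.14 (SE 0.05, edgeR adjusted p = 0.227). With the replicate block 2 of the 15 further targets and 1 of the 6 partners were called, all lower, against 23.6% of all genes.

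The remaining cytosolic synthetases and scaffold proteins of the multisynthetase complex were below 0 in 7 of 7 genes, against 48.8% of all tested genes. Their median was -0.13, and 3 were lower at an unadjusted p under 0.05, against 8.10% of all tested genes. With size alone and in the FPKM fits 5 of 7 were below 0, without SRPK2 replicate 3 or any 1 control library 6 of 7. The gene length correction gave a median of -0.08, as did leaving out control replicate 2. AIMP2, a scaffold of that complex, had 64.7, 70.6 and 57.4 CPM with SRPK2 and 76.4, 74.8 and 72.5 CPM with the empty vector, without overlap. Its log2 fold change was -0.22 (SE 0.07, edgeR adjusted p = 0.185). AIMP2 passed without SRPK2 replicate 2 (-0.29, edgeR adjusted p = 0.0190) and with no filter on low counts (edgeR adjusted p = 0.0230). These settings called 8.37% and 3.36% of all genes. FARSA, a chain of the phenylalanine enzyme, stood at -0.14 (SE 0.06, edgeR adjusted p = 0.273). With the replicate block 5 of these 7 genes were called, all lower, against 23.6% of all genes. The 16 tested mitochondrial synthetases had a median of -0.00 with 0 at an unadjusted p under 0.05, and IARS2 and YARS2 stood at 0.02 and -0.08. Chaperones and targets of the other arms of the unfolded protein response had a median of 0.03 over 18 genes, with 1 higher and 1 lower at an unadjusted p under 0.05. The most abundant, CALR and HSPA5, stood at 0.07 and 0.04. Without SRPK2 replicate 2 HYOU1 (0.22, edgeR adjusted p = 0.0323) and CRELD2 (-0.27, edgeR adjusted p = 0.0393) of this list passed, both named after their values were seen. That setting called 8.37% of all genes. The replicate block called 1 of the 16 mitochondrial synthetases, as lower. Of the 18 chaperones and other targets it called 3 higher and 2 lower.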

How the data were processed

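TRIZOL-extracted, DNase-treated total RNA was sequenced in paired-end mode, per the labels' protocols. Libraries were strand-specific, with biological replicates, according to the design text. Tools named in the submitters' processing notes are bcl2fastq, FastQC and HISAT2, with the build GRCh38. How reads were counted, whether by strand and on which annotation release, is not given in the sources used here. The authors deposited whole-number read counts for 29710 genes, not normalized, and FPKM values for 29256 genes.

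The main test was edgeR 4.0.16 (R 4.3.3) on the counts, with TMM factors, filterByExpr and the two-sided quasi-likelihood F test on group alone. Benjamini-Hochberg adjustment ran over 16515 genes, which hold 99.9% of reads, with a threshold of 0.05. An SE is the size of the log2 fold change divided by the root of F. The biological coefficient of variation was 5.85%, and chi-square values between replicates, 4.44 to 15.2 for each degree of freedom, exceeded sampling noise.

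Alternatives were RLE factors, size alone, no count filter, mean CPM of 5 or more, DESeq2 1.42.0, limma-voom (limma 3.58.1), limma on log2(FPKM + 1) or log2(FPKM + 0.1) above a mean FPKM of 0.5 or unfiltered, a replicate block, a loess correction for gene length (span 0.3, 13624 genes) alone or together with the block, and each library left out. Scripts were tested on simulated data.

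The members and lists were chosen with earlier results of these data known. Values per library are given for members with an unadjusted p under 0.05, ATF4, and the 2 of each role with the largest change or the highest FPKM, and each other list names its 2 most abundant genes, except 1 gene that is not reported here. Gene coordinates are from GENCODE 29 (GRCh38), promoter sequences from RefSeq (GRCh38.p14). Figures used Python 3.11.15 and matplotlib 3.10.9.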

Additional observations from a re-analysis of the deposited data

How the results depend on the processing

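With libraries scaled by size alone, ALDH18A1, SESN2, SLC7A5, CARS1, IARS1 and NARS1 turned in sign, with log2 fold changes of 0.033, 0.0035, 0.024, 0.014, 0.025 and 0.0028. With limma on log2(FPKM + 1) they had 0.032, 0.0028, 0.023, 0.012, 0.022 and 0.0028, both with and without the filter, and with log2(FPKM + 0.1) 0.033, 0.0039, 0.024, 0.013, 0.023 and 0.0029. VLDLR and AARS1 turned with RLE factors (-0.0052 and -0.0013) and DESeq2 (-0.0060 and -0.0020), and ALDH18A1 with a mean CPM of at least 5 (0.00051). With the gene length correction ALDH18A1, VLDLR, AARS1 and VARS1 turned (0.014, -0.072, -0.052 and -0.0025), and also with it and the replicate block (0.014, -0.072, -0.053 and -0.0015). None of these reversed values passed the threshold, and the cause was not tested. Of the 37 members 26 kept their sign under each setting in which they were tested, of 19 settings. The synthetase median was -0.0071 with library size alone, -0.0067 with limma on log2(FPKM + 1) with or without the filter, -0.0071 on log2(FPKM + 0.1), -0.081 with the gene length correction and -0.083 with that and the block. When 1 library was left out, log2 fold changes ranged from -0.016 to 0.0048 for ALDH18A1, -0.037 to 0.031 for VLDLR, -0.051 to 0.032 for SLC7A5, -0.0050 to 0.107 for SLC38A2, -0.020 to 0.025 for AARS1, -0.051 to 0.028 for CARS1, -0.039 to 0.0092 for IARS1, -0.023 to 0.058 for VARS1 and -0.072 to 0.0072 for HARS1. The number of members called ranged from 0 to 2 and that of all genes from 27 to 1403, with 1403 reached without SRPK2 replicate 2 and 27 to 46 without any 1 of the other libraries, so each moved that count by over 1.5 times.

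Over all genes 75 were called, against 133 with DESeq2, 18 with limma on log2(FPKM + 1) and no filter, and 997 with no filter on low counts, where 2 members (ASNS and PSAT1) passed. The replicate numbers share no stated batch. Deviations of same-numbered libraries correlated at 0.084, 0.23 and 0.17 across genes for replicates 1, 2 and 3, and each library correlated best with its own number, which is a hint from the data and not from the design. With the replicate block 3899 genes (23.6%) and 17 members were called, 45.9% of the 37. DDIT4 and WARS1 were higher, and ATF4, DDIT3, CEBPB, ASNS, PSAT1, PSPH, SHMT2, MTHFD2, PYCR1, TRIB3, SLC3A2, SLC1A5, SARS1, TARS1 and RARS1 lower. With the block and the gene length correction 3203 genes (23.5%) and 17 of 36 members were called, without ATF4, DDIT3, CEBPB, PSPH, SLC1A5, SARS1 and WARS1 and with CHAC1 (higher), GARS1, IARS1, LARS1, MARS1, YARS1 and HARS1 (lower).

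Depth limits PHGDH, at 41 to 63 reads per library. The other 36 members had at least 216 reads in each.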
